A study of Mus musculus with 9 samples.

Results

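Integrins are the adhesion receptors with which leukocytes hold on to other cells and to the extracellular matrix, and the 10 integrin subunit genes described here are Itgal, Itgam, Itgax, Itgb2, Itga4, Itga5, Itga6, Itgav, Itgb1 and Itgb7. They were chosen by name, as the leukocyte integrins and the integrins that bind fibronectin and related matrix ligands. No cut on their values was used, but earlier results of these data were known when they were chosen. They are 10 of the 55487 genes in the count tables, and all 10 passed the filter on low counts that left 14312 genes for testing. RNA was sequenced from RAW264.7 cells, a mouse macrophage-like line, in 3 genotypes of the transcription factor C/EBPδ with 3 libraries each, and all cells were harvested without stimulation. Wild-type cells (CEBPD wild type in the labels) carried the unedited gene. Homozygous ΔTAD cells (CEBPD TAD mutant) had lost the transactivation domain at the endogenous locus by CRISPR/Cas9 and kept the DNA-binding part under the gene's own promoter. Homozygous knock-out cells (CEBPD KO) came from the same editing, with deletions that were out of frame. Edited cells were sorted, grown from single cells and selected with puromycin, so clone and genotype cannot be told apart. The series speaks of 3 independent clones without saying whether each library is a clone. Where libraries of a genotype share a clone, the p-values measure only the spread between these libraries, which may be technical.

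An integrin is a heterodimer of an α and a β chain, and both must be made for the receptor to reach the surface. The β2 chain (CD18, from Itgb2) pairs with αL (LFA-1), αM (Mac-1, CR3), αX (CR4) and αD and is restricted to leukocytes, where these receptors bind ICAMs, fibrinogen and complement fragment iC3b. The β1 chain pairs with many α chains, among them α4 (VLA-4, which binds VCAM-1 and fibronectin), α5 (the classical fibronectin receptor) and α6 (a laminin receptor). The β7 chain pairs with α4 to bind MAdCAM-1 in the gut and with αE to bind E-cadherin, and αv pairs with several β chains to bind vitronectin, osteopontin and latent TGF-β. Talin and kindlin bind β tails from inside the cell and switch the receptor to its high-affinity state.

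Libraries held 16113306 to 20981829 counts on genes, so that 3 counts, taken as the floor of detection, were 0.143 to 0.186 CPM, counts scaled to library size. The targeted gene Cebpd lay at 6.12 to 7.29 CPM in wild-type, 5.22 to 5.61 in knock-out and 4.90 to 6.19 in ΔTAD libraries, and since most of the transcript lies outside the deletion, these counts do not check the genotype. Genes of ribosomal RNA took 11.7% of the counts in ΔTAD replicate 1 and 0.346% to 1.22% in the other 8 libraries, and results that rest on that library are given with and without it. Of 8 macrophage markers 7 exceeded the floor, and their summed level was 2582 to 2729 CPM in wild-type, 3600 to 3949 in knock-out and 5977 to 6130 in ΔTAD libraries. This sum moved with genotype, and its largest part was Lyz2, with means of 1167, 2114 and 4192 CPM. Of the 7 markers tested, 5 were called higher and 1 lower in knock-out, and 6 higher and 1 lower in ΔTAD. Among all tested genes, 45.2% and 49.7% were called. Adgre1 rose by 1.45 and 1.71 on the log2 scale and Spi1 by 0.29 and 0.79. The 51 tested neighbours of Adgre1 within 2 Mb on chromosome 17 had median log2 fold changes of 0.50 and 0.60. Fcgr1 fell (−1.14 and −0.44), and Csf1r gave −0.058 and 0.20. The part of these shifts in the results below was not tested. The defining T cell genes Cd3e and Cd3g, the B cell gene Ms4a1, the neutrophil gene S100a9, the dendritic cell gene Flt3, the platelet gene Ppbp, the fibroblast genes Col1a2, Pdgfra and Dcn and the epithelial genes Epcam, Krt18 and Krt19 had 0 counts in every library. Of the same lists, Lck had 68 to 126, S100a8 6 to 26 and Zbtb46 10 to 28 counts, and Lck was called lower in knock-out (−0.49) and ΔTAD (−0.44). The 4 endothelial markers summed to 6.08 to 7.38 CPM in wild-type, 37.6 to 38.8 in knock-out and 17.1 to 18.6 in ΔTAD libraries. Most of that was Vwf, while Cdh5 had at most 6 counts. Kdr went the other way and was called lower in both edited genotypes. It had 25, 10 and 12 counts in wild-type, 4, 2 and 1 in knock-out and 1, 0 and 0 in ΔTAD replicates.

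The promoters of 4 genes are shown because they span the patterns described below: Itgax and Itgb7 fell in both edited genotypes, Itga5 rose in both, and Itgam was not called in either. Each is the 250 bases before the transcription start in RefSeq, build GRCm38.p6, 5′ to 3′ on the gene's own strand. They lie at chr7:128129300-128129549 on the plus strand for Itgax, chr15:102231936-102232185 on the minus strand for Itgb7, chr15:103366792-103367041 on the minus strand for Itga5 and chr7:128062390-128062639 on the plus strand for Itgam. Capitals mark matches, on either strand, to the letters CCAAT, to the C/EBP pattern TTNNGNAA or to the core GAGGAA of the myeloid factor PU.1.
Itgax: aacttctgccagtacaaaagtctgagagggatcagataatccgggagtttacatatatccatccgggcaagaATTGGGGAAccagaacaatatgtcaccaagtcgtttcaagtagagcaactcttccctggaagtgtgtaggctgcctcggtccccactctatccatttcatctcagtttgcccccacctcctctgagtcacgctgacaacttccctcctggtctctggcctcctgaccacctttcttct
Itgb7: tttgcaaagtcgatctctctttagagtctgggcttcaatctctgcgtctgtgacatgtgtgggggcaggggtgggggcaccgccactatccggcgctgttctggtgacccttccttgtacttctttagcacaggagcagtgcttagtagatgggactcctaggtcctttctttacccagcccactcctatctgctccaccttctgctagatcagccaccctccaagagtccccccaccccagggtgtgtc
Itga5: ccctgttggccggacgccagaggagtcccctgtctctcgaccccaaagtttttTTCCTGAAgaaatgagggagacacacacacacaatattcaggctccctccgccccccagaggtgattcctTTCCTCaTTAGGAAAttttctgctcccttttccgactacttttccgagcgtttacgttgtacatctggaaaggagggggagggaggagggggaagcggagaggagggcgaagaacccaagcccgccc
Itgam: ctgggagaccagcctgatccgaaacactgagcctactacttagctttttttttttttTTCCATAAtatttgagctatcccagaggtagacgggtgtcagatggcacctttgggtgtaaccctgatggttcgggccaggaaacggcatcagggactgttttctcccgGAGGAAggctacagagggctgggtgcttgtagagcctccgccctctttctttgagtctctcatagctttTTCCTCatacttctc

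The Itgax window held 1 CCAAT match and 1 C/EBP match that overlap, 178 to 170 bases before the start. Such an overlap occurred in 1.17% of the 32841 mouse promoters of the same length, while CCAAT alone was found in 33.9%, the C/EBP pattern in 36.9% and GAGGAA in 23.3%. The Itga5 window held 2 C/EBP matches and 1 PU.1 match, and that of Itgam 1 C/EBP match and 2 PU.1 matches. The Itgb7 window held none of the 3. Promoters of 7 of the 10 genes were matched in all, and of those not printed, Itgav had 2 PU.1 matches, Itgb1 had 1 and Itga4 had none of the 3 patterns. These are matches of letters, and they say nothing of binding.

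Levels can be compared between genes only per length, and the unit for this is CPM per kilobase of exon that no other gene shares. In wild-type macrophages Itgb2 was highest at 72.3 ± 3.09 CPM per kb (SD, n = 3), followed by Itgb1 at 57.1 ± 1.25. Itga5 and Itga4 came next at 31.7 ± 1.65 and 28.5 ± 2.06. Their ranges over libraries overlapped, but Itga5 was the higher within each library. Below them stood Itgam at 21.8 ± 0.61 (6.84 ± 0.191 per kb of whole exon length, which would place it under Itgav), Itgb7 at 15.1 ± 0.745 and Itgav at 8.74 ± 0.38. Itgax and Itgal were lower still, at 3.17 ± 0.213 and 3.07 ± 0.176 with overlapping libraries, and Itga6 was at 0.324 ± 0.0263. The 10 genes made up 96.9% of the summed CPM per kb of all 26 mouse integrin subunit genes in wild-type, against 97.3% in knock-out and 96.2% in ΔTAD cells. The value of Itgam is the least certain, because 68.7% of its exon bases are shared on the same strand with the annotated gene Gm49368, which had at most 2 counts in any library. Reads in such bases may have been set aside in counting.

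**Figure D1:**
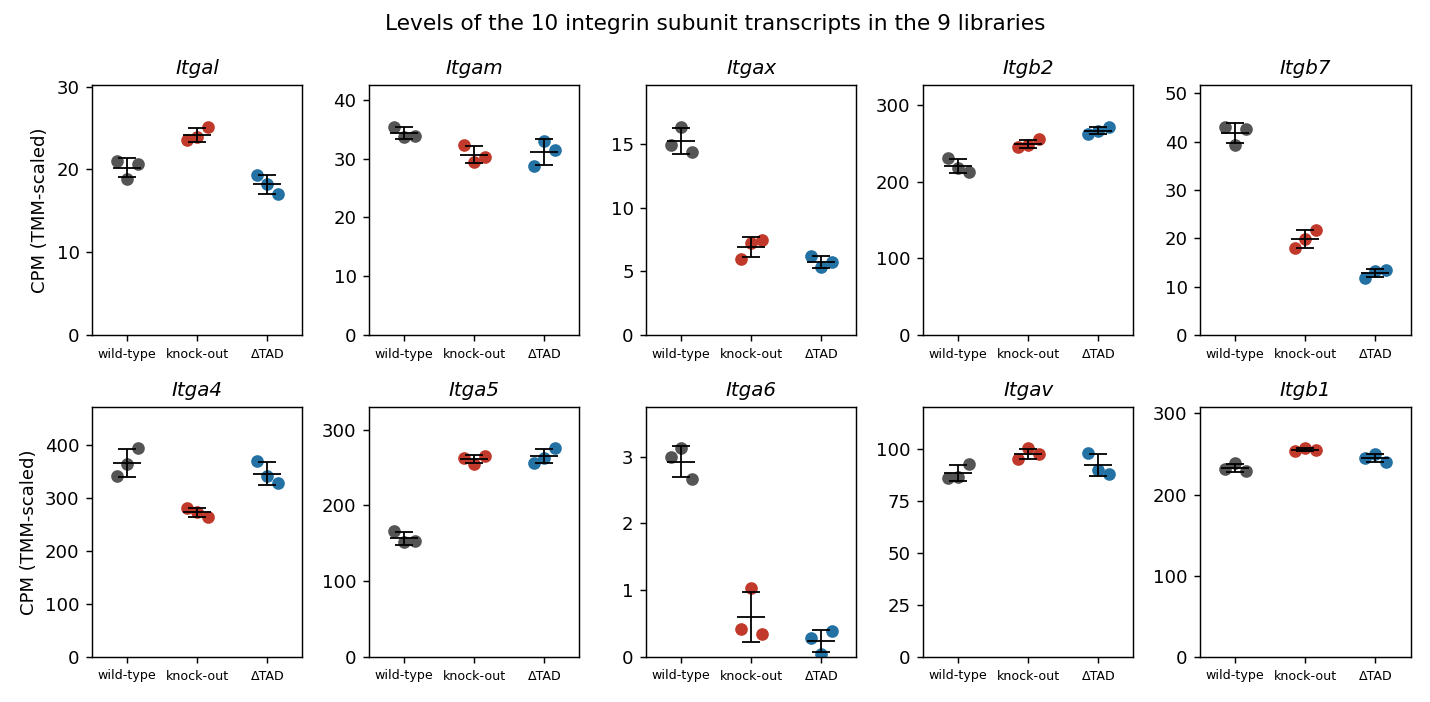
Levels of the 10 integrin subunit genes, in TMM-scaled CPM on a linear axis from 0, for wild-type (grey), knock-out (red) and ΔTAD (blue) macrophages. Points are libraries in the order of replicates 1 to 3, and bars are the mean ± 1 SD of 3 libraries. Itgax, Itgb7 and Itga6 lie lower and Itga5 higher in all 6 edited libraries than in any wild-type library.

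The first question was how these genes differed between each edited genotype and wild-type macrophages. In knock-out against wild-type macrophages 9 of the 10 genes were called, 5 higher and 4 lower, where 45.2% of all tested genes were called (22.8% higher and 22.4% lower). A gene was called at a Benjamini-Hochberg adjusted p-value under 0.01 in edgeR's quasi-likelihood test over all 14312 genes, which gave every adjusted p-value below. Itgax, Itgb7 and Itga6 were called with a change of at least 1 on the log2 scale, as were 7.66% of tested genes. The median log2 fold change was −0.016 over the 10 genes and −0.001 over all tested genes, and the median size was 0.34 against 0.24. In ΔTAD against wild-type macrophages 5 genes were called, Itgb2 and Itga5 higher and Itgax, Itga6 and Itgb7 lower. Since 49.7% of all tested genes were called there (26.3% higher and 23.4% lower), 5 of 10 is no more than the share over all genes. The same 3 genes were called with a change of at least 1 on the log2 scale, as were 9.31% of tested genes, and the median size was 0.22 for the 10 genes and 0.27 overall. Both comparisons use the same wild-type libraries.

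**Figure D2:**
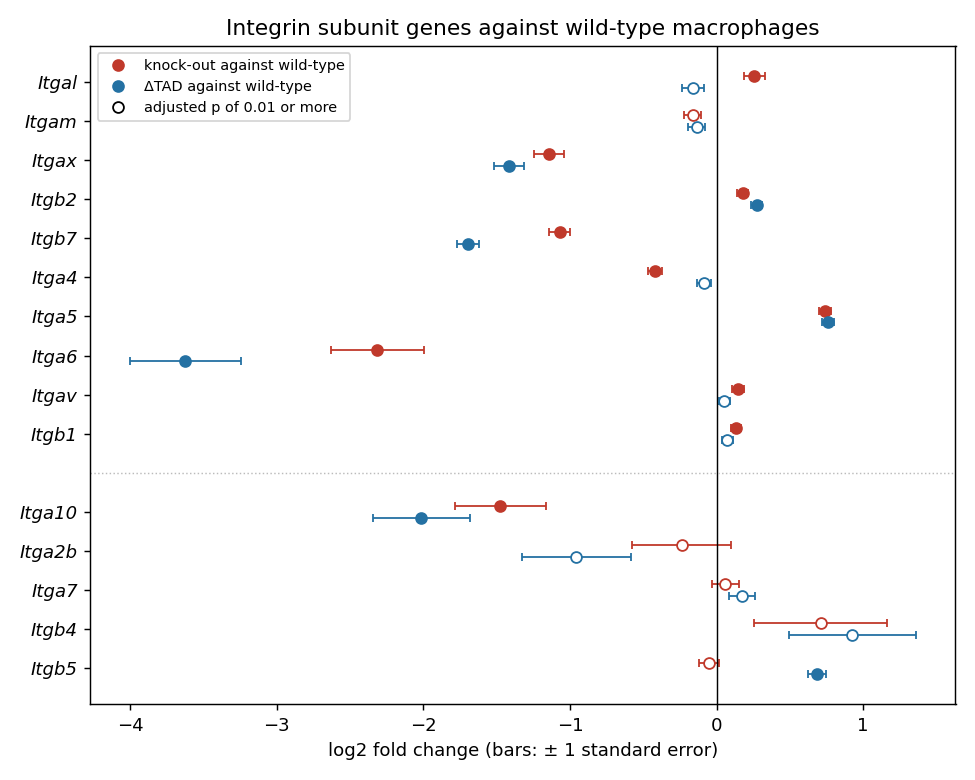
Log2 fold changes of the 10 integrin subunit genes (above the dotted line) and of the 5 other tested subunits (below it) in knock-out (red) and ΔTAD (blue) against wild-type macrophages. Points are fitted values from 3 libraries per genotype, bars are ± 1 standard error, and open points have an adjusted p-value of 0.01 or more. Itga6, Itgb7 and Itgax lie at or below −1.07 in both genotypes, and Itga5 lies at 0.74 and 0.76.

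Of the β2 family, Itgax changed most. Itgax (ENSMUSG00000030789, chromosome 7, 128129547 to 128150657) encodes αX, known as CD11c. Its level was 14.9, 16.4 and 14.4 CPM in wild-type replicates 1 to 3, 6.01, 7.25 and 7.48 in knock-out and 6.23, 5.33 and 5.71 in ΔTAD replicates. Every edited library lay under every wild-type library, and the edited genotypes overlapped. The fall was 2.21-fold in knock-out (log2 fold change −1.14 ± 0.0998 SE, adjusted p = 4.87e-10) and 2.67-fold in ΔTAD macrophages (−1.41 ± 0.102, adjusted p = 1.34e-11), or 2.81-fold in the latter without ΔTAD replicate 1. In knock-out, 6.61% of tested genes changed by more than Itgax, and in ΔTAD 5.37% did. The 98 tested genes within 2 Mb had median log2 fold changes of 0.022 and 0.044.

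Itgam (ENSMUSG00000030786, chromosome 7, 128062640 to 128118491), the αM or CD11b chain that lies just upstream of Itgax, was the only one of the 10 genes not called in any comparison. It lay at 35.5, 33.7 and 33.9 CPM in wild-type, 32.3, 29.4 and 30.3 in knock-out and 28.8, 33.1 and 31.5 in ΔTAD replicates. All edited libraries were below the wild-type libraries, by −0.16 ± 0.0608 in knock-out (adjusted p = 0.0253) and −0.14 ± 0.0602 in ΔTAD (adjusted p = 0.055). The shared exons described above leave these counts uncertain.

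Itgal (ENSMUSG00000030830, chromosome 7, 127296260 to 127335138), the αL or CD11a chain of LFA-1, separated the edited genotypes. Its level was 21.0, 18.9 and 20.7 CPM in wild-type, 23.5, 23.9 and 25.2 in knock-out and 19.3, 18.3 and 17.0 in ΔTAD replicates. Knock-out libraries were above all others, and wild-type and ΔTAD libraries overlapped. Itgal was higher in knock-out than in wild-type by 0.26 ± 0.0699 (adjusted p = 0.00291) and than in ΔTAD by 0.42 ± 0.0708 (adjusted p = 4.04e-05), and the value for ΔTAD against wild-type was −0.16 ± 0.0727 (adjusted p = 0.0618). The call against wild-type was lost without wild-type replicate 2 (adjusted p = 0.0177) or knock-out replicate 3 (adjusted p = 0.0222), with DESeq2 (adjusted p = 0.0152) and with scaling by total count alone (adjusted p = 0.016). For ΔTAD against wild-type, leaving out ΔTAD replicate 1 gave −0.23 (adjusted p = 0.0125), and only that ΔTAD library overlapped with wild-type.

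The common β chain Itgb2 (ENSMUSG00000000290, chromosome 10, 77530252 to 77565708) rose slightly. It lay at 231, 218 and 213 CPM in wild-type, 245, 248 and 255 in knock-out and 262, 266 and 272 in ΔTAD replicates. The 3 genotypes did not overlap, in the order wild-type, knock-out, ΔTAD. The rise was 1.13-fold in knock-out (0.18 ± 0.0376, adjusted p = 0.00029) and 1.21-fold in ΔTAD macrophages (0.27 ± 0.0375, adjusted p = 8.71e-07), and knock-out against ΔTAD was not called (−0.096 ± 0.0374, adjusted p = 0.0388). With libraries scaled by total count alone, neither rise passed the threshold (adjusted p = 0.0328 and 0.0115).

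Set against each other per length, the α chains of this family were lower relative to β2 in the edited genotypes. The summed level of Itgal, Itgam and Itgax (Itgad, the αD chain, had 0 counts) was 28.1 ± 0.653 CPM per kb in wild-type, against 24.6 ± 0.747 in knock-out and 23.7 ± 1.18 in ΔTAD cells. Divided by Itgb2, this gave 0.381, 0.388 and 0.398 in wild-type, 0.316, 0.293 and 0.295 in knock-out and 0.263, 0.286 and 0.267 in ΔTAD replicates. Each wild-type library thus had more α transcript per β2 transcript than any edited library, and knock-out exceeded ΔTAD without overlap. Within the α chains, the share of Itgax was 11.3% ± 0.877 in wild-type, against 5.87% ± 0.803 in knock-out and 5.07% ± 0.649 in ΔTAD. The share of Itgal was 10.95% ± 0.518, 14.98% ± 0.751 and 11.7% ± 1.17 in the same order, and Itgam made up the remaining 77.7% ± 0.42, 79.2% ± 1.54 and 83.2% ± 1.76. With the whole exon length of Itgam, an alternative chosen after seeing the data, the share of Itgam was 52.3%, 54.4% and 60.9%, that of Itgax 24.3%, 12.8% and 11.8% and the ratio to Itgb2 0.181, 0.137 and 0.116. The size of these values thus rests on the length used, and the order of the genotypes for Itgax and for the ratio does not. Most of the sum is Itgam, which was not called, and no test was made on sums, ratios or shares.

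**Figure D3:**
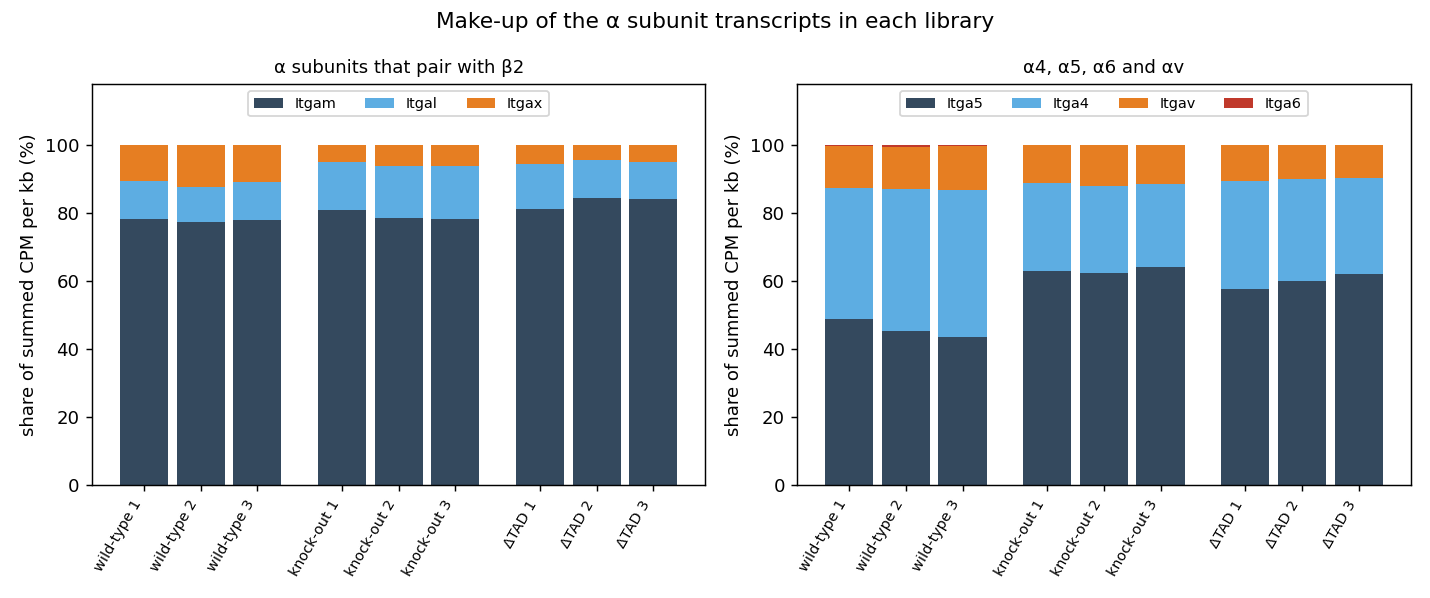
Make-up of the α subunit transcripts in each of the 9 libraries, as a share (%) of summed CPM per kb, for the α chains of β2 (left: Itgam, Itgal, Itgax) and for α4, α5, α6 and αv (right). The share of Itgax falls from 10.8% to 12.3% in wild-type libraries to 4.46% to 6.33% in edited libraries, and that of Itga5 rises from 43.5% to 48.7% to between 57.5% and 64.0%.

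Among the α4, β1 and β7 chains, Itgb7 fell and graded across the genotypes. Itgb7 (ENSMUSG00000001281, chromosome 15, 102215995 to 102231944, minus strand) lay at 43.1, 39.4 and 42.7 CPM in wild-type, 18.0, 19.9 and 21.8 in knock-out and 11.9, 13.2 and 13.4 in ΔTAD replicates. No library of a genotype overlapped with another genotype, with wild-type highest and ΔTAD lowest. The fall was 2.1-fold in knock-out (−1.07 ± 0.0692, adjusted p = 1.86e-12) and 3.24-fold in ΔTAD macrophages (−1.70 ± 0.0738, adjusted p = 7.38e-16). Knock-out exceeded ΔTAD 1.54-fold (0.63 ± 0.0823, adjusted p = 1.5e-06). In knock-out 7.49% of tested genes changed by more than Itgb7, in ΔTAD 3.88%, and the 53 tested neighbours within 2 Mb had medians of 0.03 and 0.076.

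Its partner Itga4 (ENSMUSG00000027009, chromosome 2, 79255426 to 79333123) fell in knock-out macrophages. Its level was 341, 364 and 394 CPM in wild-type, 281, 275 and 265 in knock-out and 369.7, 341 and 328 in ΔTAD replicates. Knock-out libraries lay under all others, and wild-type and ΔTAD libraries overlapped. The fall was 1.34-fold in knock-out (−0.42 ± 0.0475, adjusted p = 4.23e-08), and knock-out against ΔTAD gave −0.34 ± 0.0475 (adjusted p = 3.51e-06). The value in ΔTAD against wild-type was −0.083 ± 0.0473 (adjusted p = 0.137), but without ΔTAD replicate 1 it was −0.16 and called (adjusted p = 0.00129). Of the exon bases of Itga4, 8.04% are shared with Cerkl on the opposite strand.

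The β1 chain Itgb1 (ENSMUSG00000025809, chromosome 8, 128685654 to 128733200) rose by little. It ranged from 229 to 239 CPM in wild-type, 254 to 257 in knock-out and 240.1 to 249.8 in ΔTAD libraries, without overlap between any of the genotypes. The rise in knock-out was 0.13 ± 0.0347 (adjusted p = 0.00213), and it was not called without wild-type replicate 3 (adjusted p = 0.0147), without knock-out replicate 3 (adjusted p = 0.0115) or with scaling by total count alone (adjusted p = 0.132). In ΔTAD the value was 0.074 ± 0.0348 (adjusted p = 0.0717). Per length, Itgb7 stood at 15.1 ± 0.745 CPM per kb beside 57.1 ± 1.25 of Itgb1 in wild-type and at 4.62 ± 0.289 beside 60.1 ± 1.19 in ΔTAD macrophages.

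Itga5, the α chain of the fibronectin receptor, showed the clearest rise. Itga5 (ENSMUSG00000000555, chromosome 15, 103344286 to 103366763, minus strand) lay at 166, 151 and 153 CPM in wild-type, 263, 255 and 265 in knock-out and 257, 263 and 275 in ΔTAD replicates. All edited libraries exceeded all wild-type libraries, and the edited genotypes overlapped. The rise was 1.67-fold in knock-out (0.74 ± 0.0405, adjusted p = 8.04e-14) and 1.69-fold in ΔTAD macrophages (0.76 ± 0.0405, adjusted p = 3.72e-14). The difference between them was −0.022 ± 0.0397 (adjusted p = 0.68). In knock-out 14.0% of tested genes changed by more, in ΔTAD 16.1%, and the 32 tested neighbours within 2 Mb had medians of −0.033 and 0.035. Itgb7 lies close to Itga5 on the same strand of chromosome 15 and moved the other way.

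Itgav (ENSMUSG00000027087, chromosome 2, 83724397 to 83806916), the αv chain, spanned 86.0 to 92.8 CPM in wild-type, 95.0 to 100.2 in knock-out and 88.1 to 98.0 in ΔTAD libraries. Knock-out lay above wild-type and overlapped with ΔTAD. The rise in knock-out was 0.14 ± 0.0403 (adjusted p = 0.00388) and was not called with DESeq2, with scaling by total count alone or without any one of wild-type replicates 1 and 2 and knock-out replicates 2 and 3 (adjusted p = 0.0152 to 0.0731). For ΔTAD against wild-type the value was 0.054 ± 0.0404 (adjusted p = 0.255) and −0.016 without ΔTAD replicate 1. Knock-out against ΔTAD gave 0.089 ± 0.04 (adjusted p = 0.0725), and without ΔTAD replicate 1 it was 0.16 and called (adjusted p = 0.00272).

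The laminin-binding α6 chain was the scarcest of the 10 and fell furthest. Itga6 (ENSMUSG00000027111, chromosome 2, 71745616 to 71858416) had 60, 54 and 44 counts in wild-type, 8, 17 and 6 in knock-out and 4, 1 and 8 in ΔTAD replicates. As CPM these were 2.66 to 3.13 in wild-type, 0.34 to 1.03 in knock-out and 0.048 to 0.381 in ΔTAD libraries, so every edited library was lower and the edited genotypes overlapped. The fall was 4.97-fold in knock-out (−2.31 ± 0.318, adjusted p = 9.93e-07) and 12.3-fold in ΔTAD macrophages (−3.62 ± 0.38, adjusted p = 1.11e-08). At these counts the size in ΔTAD is uncertain, and knock-out against ΔTAD was not called (1.31 ± 0.533, adjusted p = 0.0485). In knock-out 2.43% of tested genes changed by more, and in ΔTAD 1.08%.

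Within the α4, α5, α6 and αv chains the order of Itga4 and Itga5 was close in wild-type macrophages and wide apart in the edited ones. The share of Itga4 in their summed CPM per kb was 41.1% ± 2.4 in wild-type, against 25.4% ± 0.734 in knock-out and 30.0% ± 1.73 in ΔTAD, and that of Itga5 was 45.8% ± 2.66, 63.1% ± 0.863 and 59.8% ± 2.25. Itgav held 12.6% ± 0.297, 11.5% ± 0.411 and 10.1% ± 0.528. The sum of the 4 chains was 69.3 ± 1.62 CPM per kb in wild-type, against 83.9 ± 0.744 in knock-out and 89.8 ± 0.937 in ΔTAD cells. The fibronectin receptor α5 chain had the largest share of the 4 in every library. It was 43.5% to 48.7% in wild-type libraries and 57.5% to 64.0% in the 6 edited libraries.

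The second question was whether the edited genotypes differed from each other. In knock-out against ΔTAD macrophages 3 of the 10 genes were called, Itgal and Itgb7 higher and Itga4 lower in knock-out, where 33.0% of all tested genes were called (13.9% higher and 19.1% lower). Of the genes called there 42.1% were higher in knock-out, and 50.2% without ΔTAD replicate 1. None of the 10 genes was called with a change of at least 1 on the log2 scale, while 3.93% of tested genes were. The share called is close to that over all genes, and the median size was 0.18 in each. Without ΔTAD replicate 1, Itgav was called as well.

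The genes whose levels followed the members with the widest range were sought over the 9 libraries as a description. Itgb7 was followed most closely by Slc39a14, Plaur and Ctsl (Pearson r of log2 CPM 0.995 for all 3), Itgax by Bzw1 (0.998), Sipa1l1 (0.992) and Fzd7 (0.992) and Itga6 by Gm9260 (0.983), Fam98b (0.972) and Tma16 (0.97). The 9 points share genotype and library, and Gm9260 and Sipa1l1 lie on chromosome 12, which was lower as a whole in the edited genotypes (medians of −0.52 and −0.54). Plaur, the urokinase receptor, is itself a membrane partner of integrins and is described below.

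Of the 16 other integrin subunits 5 passed the filter. Itga1, Itga2, Itgad, Itgb6 and Itgb8 had 0 counts in every library, and Itga3, Itga8, Itga9 and Itga11 never exceeded 3. Itgb5, a partner of αv, lay at 18.9, 19.5 and 18.7 CPM in wild-type, 17.9, 19.1 and 18.1 in knock-out and 30.4, 29.3 and 31.8 in ΔTAD replicates. ΔTAD libraries were above all others. It rose 1.61-fold in ΔTAD (0.69 ± 0.0637, adjusted p = 1.32e-09) and gave −0.05 in knock-out (adjusted p = 0.567), and knock-out against ΔTAD was called lower (−0.74 ± 0.0642, adjusted p = 1.92e-09). Itga10, a collagen-binding chain that shares 33.5% of its exon bases with Gm42957, fell in both genotypes from 51, 36 and 27 counts in wild-type to 14, 20 and 6 in knock-out and 9, 8 and 12 in ΔTAD replicates (−1.48, adjusted p = 0.000262, and −2.01, adjusted p = 1.22e-05). Itgb3, the β3 partner of αv, had 14, 11 and 4 counts in wild-type, 2, 0 and 0 in knock-out and 0 in all ΔTAD replicates, which is at least 3.10-fold and 3.17-fold lower against a floor of 3 counts per library, and it was not tested. Itgae, the other partner of β7, had at most 11 counts, and Itga2b, Itga7 and Itgb4 were tested and not called in any comparison.

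The genes that work with integrins were read from 3 further lists, of which 29 of 32 activators and adaptors, 10 of 27 ligands and all 11 membrane partners passed the filter. Together with the 5 other subunits, 41 of these 55 genes were called in knock-out (24 higher, 17 lower), 40 in ΔTAD (22 higher, 18 lower) and 30 in knock-out against ΔTAD (15 in each direction). These are 74.5%, 72.7% and 54.5% of the tested genes on the lists, beside 45.2%, 49.7% and 33.0% over all genes. These counts are a description, and no set test was made.

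Of the activators and adaptors, 17 rose and 6 fell in knock-out and 15 rose and 7 fell in ΔTAD macrophages, with median log2 fold changes of 0.16 and 0.15. Among all tested genes, 22.8% rose and 22.4% fell in knock-out, and 26.3% rose and 23.4% fell in ΔTAD. The median size of the change was 0.288 and 0.235 on this list, beside 0.239 and 0.273 over all tested genes. In ΔTAD these genes were thus called often but did not change by more than genes in general. The kinase Src, which signals downstream of integrins, rose from 14.3 ± 0.412 CPM in wild-type to 31.6 ± 0.931 and 20.5 ± 0.59 CPM (1.14, adjusted p = 2.22e-13, and 0.52, adjusted p = 6.78e-07), and Fgr, Fyb and Ilk rose in both by 0.25 to 0.69. The focal adhesion scaffold Pxn (paxillin) fell from 338 ± 12.1 to 199 ± 0.992 and 181 ± 2.09 CPM (−0.76, adjusted p = 4.06e-15, and −0.90, adjusted p = 1.37e-16). Itgb1bp1, a negative regulator of talin binding, fell by 0.72 and 0.42. It lies on chromosome 12, where the median of all tested genes was −0.52 and −0.54, and its 7 tested neighbours within 2 Mb had a median of −0.595 in both, so the value in ΔTAD was smaller than that of its neighbours.

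Talin itself, Tln1, was called in opposite directions. It lay at 1553, 1431 and 1439 CPM in wild-type, 1779, 1764 and 1700 in knock-out and 1187, 1283 and 1288 in ΔTAD replicates. The 3 genotypes did not overlap, with knock-out highest and ΔTAD lowest. Against wild-type the values were 0.25 ± 0.0329 (adjusted p = 6.9e-07) and −0.24 ± 0.0329 (adjusted p = 1.19e-06), and knock-out against ΔTAD gave 0.48 ± 0.033 (adjusted p = 2.37e-11). The adaptors Zyx and Parvb showed the same pair of opposite calls (0.27 and −0.21, and 0.14 and −0.26), but some of these calls were easily lost. That of Zyx in ΔTAD was lost without wild-type replicate 1 or ΔTAD replicate 2 (adjusted p = 0.0169 and 0.0287) and with DESeq2 (adjusted p = 0.0112), and its 9 tested neighbours had medians of −0.10 and −0.38. That of Parvb in knock-out was lost without wild-type replicates 2 or 3 or knock-out replicate 3 (adjusted p = 0.0132 to 0.0149) and with scaling by total count alone (adjusted p = 0.11). The leukocyte kindlin Fermt3 fell in knock-out by 0.18 (adjusted p = 0.000369) and gave 0.028 in ΔTAD (adjusted p = 0.546). Rassf5, which links Rap1 to αL, fell in knock-out by 0.43 and gave −0.14 in ΔTAD (adjusted p = 0.0184, and 0.00708 without ΔTAD replicate 1).

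Among the ligands, 3 rose and 6 fell in knock-out and 2 rose and 7 fell in ΔTAD macrophages, with medians of −0.72 and −0.50 over the 10 tested. Over all tested genes 22.8% were called higher and 22.4% lower in knock-out, and 26.3% and 23.4% in ΔTAD. The medians over all tested genes were −0.001 and −0.003. Their median size was 0.985 and 0.777, beside 0.239 and 0.273 over all tested genes. Fibronectin (Fn1) and vitronectin (Vtn) had 0 counts in every library and Vcam1 at most 1, so that RNA of these ligands was not detectable at this depth. Icam1, the ligand of LFA-1 and Mac-1, was at 56.7, 52.5 and 56.7 CPM in wild-type, 68.3, 68.7 and 69.4 in knock-out and 90.5, 89.2 and 89.9 in ΔTAD replicates. The genotypes did not overlap, and the rise was 0.31 in knock-out (adjusted p = 1.42e-07) and 0.70 in ΔTAD (adjusted p = 2.79e-14). The other ICAMs did not follow it. Icam2 fell by 1.13 and 0.86 and Icam4 by 1.48 and 0.999, and Icam5 fell by 1.23 in knock-out (adjusted p = 8.94e-05) and gave −0.053 in ΔTAD (adjusted p = 0.836).

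C3, the source of the iC3b ligand of Mac-1 and CR4, rose from 1.32 ± 0.303 CPM in wild-type to 6.01 ± 0.183 in knock-out and 4.08 ± 0.324 in ΔTAD (2.18, adjusted p = 7.12e-11, and 1.61, adjusted p = 4.43e-08). It lies on chromosome 17, where the median of all tested genes was 0.48 and 0.50, and its 51 tested neighbours within 2 Mb had medians of 0.50 and 0.60. Osteopontin, Spp1, a ligand of αv and α4 chains and among the most abundant transcripts here, lay at 7092, 7403 and 7139 CPM in wild-type, 10440, 10950 and 10570 in knock-out and 5032, 5026 and 5000 in ΔTAD replicates. It was called in opposite directions, by 0.56 ± 0.0173 (adjusted p = 1.03e-18) and −0.52 ± 0.0173 (adjusted p = 3.42e-18), without overlap. F11r, the junctional molecule JAM-A and a ligand of LFA-1, had 13, 16 and 19 counts in wild-type, 0 in all knock-out and 0, 1 and 0 in ΔTAD replicates, which is at least 5.35-fold and 5.49-fold lower against the same floor. With F11r at these bounds the medians of the list did not move. F11r passed the filter on low counts only through its wild-type libraries, so it could only be called lower. It is counted among the falls of the list, and its call adds no support to their direction. The αv ligands Edil3 and Mfge8 fell in both (−0.84 and −1.06, −0.60 and −0.47), and Tgfb1 fell in ΔTAD by 0.40 (adjusted p = 2.38e-09) and gave 0.047 in knock-out.

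The membrane partners split evenly, with 4 rises and 4 falls in knock-out and 4 rises and 3 falls in ΔTAD macrophages. Called were thus 72.7% and 63.6% of the 11 tested, beside 45.2% and 49.7% of all tested genes. Their median size was 0.368 and 0.178, beside 0.239 and 0.273 over all tested genes. Plaur, the urokinase receptor that associates with β2 and β1 integrins, was at 138, 131 and 130.2 CPM in wild-type, 64.9, 70.4 and 70.6 in knock-out and 47.1, 50.6 and 54.5 in ΔTAD replicates. The genotypes did not overlap, in the same order as for Itgb7, and the fall was 0.96 (adjusted p = 9.35e-16) and 1.38 (adjusted p = 1.02e-18) on the log2 scale. The tetraspanin Cd9 rose from 219 ± 7.68 to 432 ± 18.7 CPM in knock-out (0.98, adjusted p = 1.38e-16) and to 248 ± 3.23 in ΔTAD (0.18, adjusted p = 0.000322, and 0.09 with an adjusted p of 0.254 under scaling by total count alone), and its 50 tested neighbours had medians of 0.15 and 0.33. Cd82, Cd151 and Cd47 rose more in ΔTAD than in knock-out (0.63 and 1.03, 0.37 and 0.73, 0.56 and 0.72), and the tetraspanin Cd53 fell (−0.66 and −1.05). Knock-out against ΔTAD was called for all of these, and for Cd47 the call was lost without knock-out replicate 1 or ΔTAD replicate 1 (adjusted p = 0.0149 and 0.0247), with DESeq2 (adjusted p = 0.0112) and with scaling by total count alone (−0.089, adjusted p = 0.278). The tetraspanin Cd81 fell in knock-out by 0.19 and gave 0.099 in ΔTAD (adjusted p = 0.0336). Slc3a2, the CD98 heavy chain that binds β1 tails, fell by 0.13 and 0.15, and the former call was lost without any one of the wild-type libraries or of knock-out replicates 1 and 2 (adjusted p = 0.0102 to 0.0398).

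**Figure D4:**
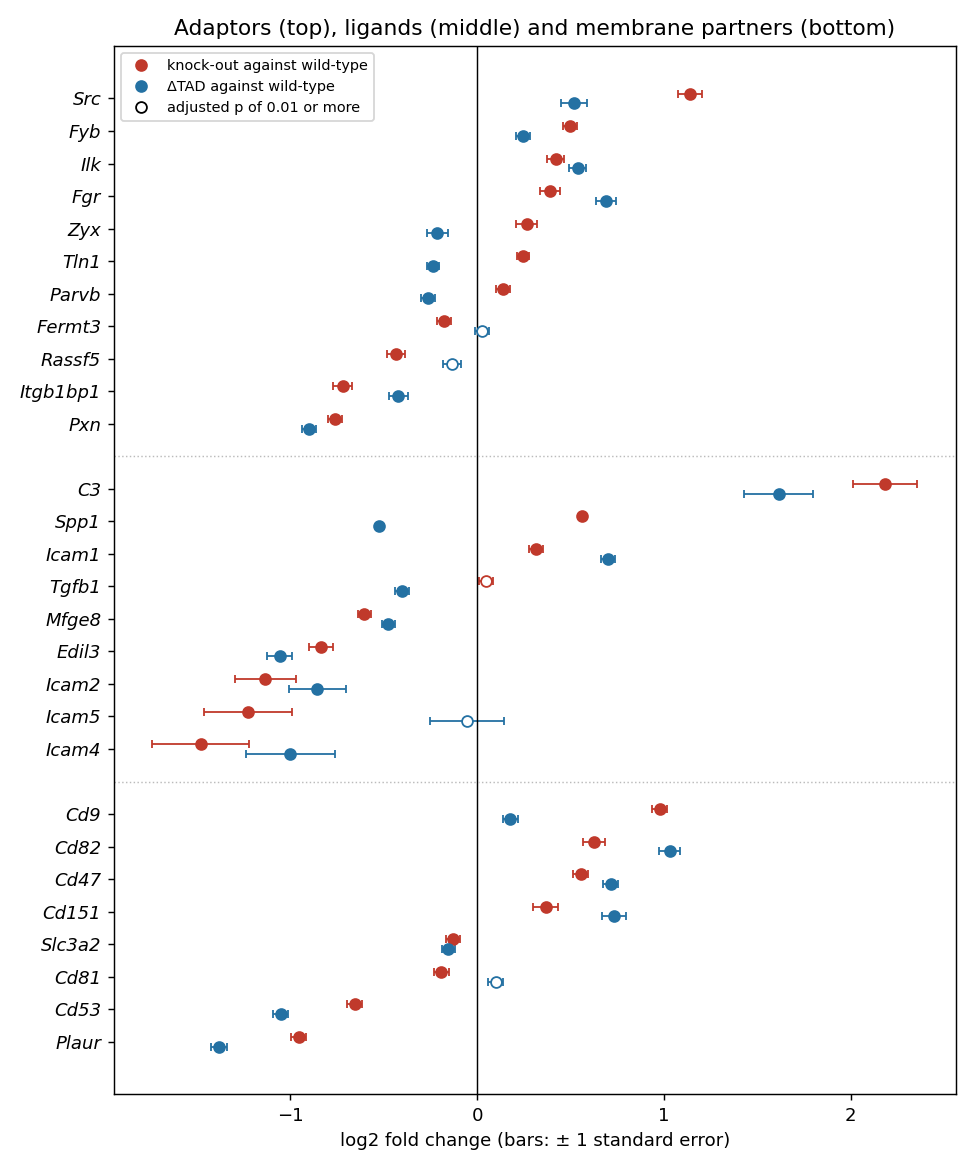
Log2 fold changes of the named activators and adaptors (top), ligands (middle) and membrane partners (bottom) in knock-out (red) and ΔTAD (blue) against wild-type macrophages, with bars of ± 1 standard error over 3 libraries per genotype and open points for an adjusted p-value of 0.01 or more. C3 lies furthest to the right, and Tln1, Zyx, Parvb and Spp1 lie on opposite sides of 0 in the 2 genotypes.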

How the data were processed

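RNA of 9 RAW264.7 libraries was depleted of ribosomal RNA and sequenced as single reads. The authors trimmed reads with Trimmomatic, aligned them to GRCm38 (Ensembl) with Hisat2 and counted them per gene with HTSeq. The deposited values are whole-number counts without normalization. The counting mode and strand setting are not given in the sources used here, so overlapping genes and paralogs are uncertain.

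For the analysis edgeR (version 4.0.16, run under R version 4.3.3) was used. filterByExpr set the genes tested (minimum count 10, total 15), TMM the scaling (factors 0.888 to 1.027), and a single quasi-likelihood model held all 9 libraries with genotype as its term. Calls needed a p-value under 0.01 after Benjamini-Hochberg adjustment. Each SE was computed as log2 fold change over root F. CPM are TMM-scaled, and CPM per kb use GENCODE exons not shared with another gene. The steps were tested on simulated data.

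Named are the 10 genes, the other integrin subunits and, from each list and comparison, the 3 highest and 3 lowest log2 fold changes among called genes of at least 1 CPM without overlap, plus Fn1, Vcam1, Icam1, Spp1, Tln1 and Fermt3. Vtn, F11r and the marker genes were named after their values were seen. Some listed genes are counted but not reported by name here. The genes, lists and tests were chosen with earlier results of these data known. As alternatives, DESeq2 (version 1.42.0) and voom (limma version 3.58.1) were run, as were other scalings and filters, fits of 2 genotypes, a replicate block, an adjusted p-value under 0.05 and leaving out each library.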

Additional observations from a re-analysis of the deposited data

How the results depend on the processing

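With libraries scaled by total count alone, 5 in place of 9 of the integrin genes were called in knock-out against wild-type (39% of tested genes), as Itgal, Itgb2, Itgav and Itgb1 no longer passed, and the share of higher genes among all called genes moved from 52.9% to 39.6% in ΔTAD against wild-type and from 42.1% to 69% in knock-out against ΔTAD. It was 50.5% in the latter with only the 2 genotypes in the model. At an adjusted p-value under 0.05 the integrin genes called in knock-out against ΔTAD went from 3 to 5, while the share over all tested genes went from 33.0% to 45.3%. DESeq2 called 7, 5 and 3 in the 3 comparisons, beside 30.4%, 33.1% and 24.9% of the genes it tested. Leaving out each library in turn gave 6 to 9 in knock-out against wild-type (6 without knock-out replicate 3), 5 to 6 in ΔTAD against wild-type and 3 to 4 in knock-out against ΔTAD, and 38 to 42, 39 to 43 and 27 to 30 of the adhesion genes. The share called over all tested genes was then 40% to 45.6%, 43.9% to 48.6% and 25.4% to 33.1%. The cause of these shifts was not tested.

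Replicate numbers are shared between genotypes, and they are not stated to pair libraries. Same-numbered libraries deviated from their genotype means with correlations of −0.072 to 0.02. With 3 libraries per genotype these values cannot decide whether libraries were paired. With the replicate number as a block 9, 5 and 3 integrin genes and 41, 40 and 29 adhesion genes were called, beside 43.9%, 48.2% and 31.2% of all tested genes.

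Directions reversed only for values that were not called. In ΔTAD against wild-type, scaling by total count alone gave −0.034 for Itgav, −0.016 for Itgb1 and −0.059 for Fermt3. Over the libraries left out in turn, Itgav ranged from −0.016 (without ΔTAD replicate 1) to 0.091 and Icam5 from −0.17 to 0.123 (without ΔTAD replicate 2; 0.076 without wild-type replicate 1). In knock-out against ΔTAD, total count alone gave 0.043 for Itgam and 0.05 for Itga5, and a model of only the 2 genotypes gave 0.005 for Itga5. There the range over libraries left out was −0.065 to 0.013 for Itgam (0.013 without ΔTAD replicate 2, 0.005 without knock-out replicate 2), −0.038 to 0.002 for Itga5 (0.002 without ΔTAD replicate 3) and −0.712 to 0.157 for Itgb4 (0.157 without knock-out replicate 3). Of the other values of the 10 genes under an alternative, 507 kept direction and side of the threshold, 5 newly passed it and 15 no longer did. For the remaining named genes these were 1771, 11 and 40, with Mfge8 in knock-out against ΔTAD lost most often. Depth limits Itga6, Itga10, Itgb3 and F11r, where edited libraries held few or no counts.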
